A study of Mus musculus with 6 samples.

Results

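Voltage-gated sodium channel genes were examined for splicing in mouse cortical neurons that received N40K, the N-terminal fragment of the U1 snRNP protein U1-70K. The set holds 7 of the 15705 genes in the deposited table, chosen by gene symbol as a channel family. The rule uses no score, but the family was picked with earlier results of these data known. They are the alpha (pore) subunit genes Scn1a, Scn2a1, Scn3a and Scn8a, and the beta (auxiliary) subunit genes Scn2b, Scn3b and Scn4b. Scn2a1 is the older symbol of Scn2a. All 7 had a score in all 6 libraries and passed the filter on low values.

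Neurons were isolated from C57BL/6 embryos at embryonic day 18 and exposed to lentivirus at day 7 of culture for 3 days. The control group (3 libraries) received the vector FCK1.3GW, in which a short CaMKII promoter drives EGFP. The N40K group (3 libraries) received FCK1.3GW-N40K, in which N40K takes the place of EGFP under that promoter. Both constructs also carry a WPRE element and long terminal repeats, so every library came from virus-exposed neurons. The labels do not say whether replicates were separate cultures, and p-values then measure only the spread between these libraries, which may be technical. The title of the series names neuronal hyperexcitability among the outcomes of U1 snRNP dysfunction, and these channels set neuronal excitability.

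The score, named Sd and read here as splicing deficiency, is a linear ratio per gene. Such a score usually sets reads of unspliced RNA against reads of spliced RNA of the same gene, so a higher score stands for less complete splicing. Its formula is not given in the sources used here, so levels were not ranked between genes and each gene was compared with itself. It is not a measure of expression, and the depth behind it is unknown. The RNA came from whole cultures, in which fewer cells of a type and less RNA per cell cannot be told apart. Scores existed for 7 of 7 neuronal markers, 6 of 6 markers of excitatory neurons and 6 of 6 of interneurons. Scores also existed for 6 of 6 astrocyte, 5 of 6 oligodendrocyte-lineage, 4 of 6 microglial and 2 of 4 endothelial markers. Among the neuronal markers Syn1 rose (ratio of mean scores 1.23), among the excitatory markers Camk2a and Slc17a6 (1.51 and 1.57), and among the interneuron markers Lhx6 (1.95). The microglial markers Csf1r and Itgam also rose (2.76 and 2.71), and Mog, a marker of oligodendrocytes, fell (0.729). Over all genes 21.5% rose and 4.11% fell. Scores do not measure how much RNA a cell type gave, and the part of other cell types in the results was not tested.

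Sodium channel alpha subunits are large proteins of 4 homologous domains that open on depolarisation and carry the rising phase of the action potential. Scn1a encodes Nav1.1, the main channel of fast-spiking interneurons, Scn2a1 encodes Nav1.2 and Scn8a encodes Nav1.6, the channels of the axon initial segment of excitatory neurons, and Scn3a encodes Nav1.3, most abundant before birth. Beta subunits have a single transmembrane segment and an immunoglobulin domain, and they modulate gating, surface expression and cell adhesion. Introns are recognised at their start by U1 snRNP, whose RNA pairs with the last bases of the exon and the first bases of the intron. Alpha subunit genes are also known to hold a few introns of the minor class, which U11 and U12 snRNPs recognise.

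On the exon side of that recognition site, the last 3 bases were GAG in Scn1a, Scn2a1 and Scn3a and GAC in Scn8a. This holds for 1 site per gene. The following lines show the last 15 exon bases, 5′ to 3′, at these corresponding sites of the 4 alpha subunit genes, with the last 3 bases, the exonic part of the U1 pairing, in capitals. The site was chosen as the end of the exon before the longest intron within the coding part of Scn1a, and in the other genes as the exon end with the fewest differing bases.
Scn1a exon 16: gaagaaagcaaaGAG
Scn2a1 exon 17: gaagaaagcaagGAG
Scn3a exon 17: gaagaaagcaagGAG
Scn8a exon 17: gaaggcagcaaaGAC

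Scn2a1 and Scn3a differed from Scn1a at 1 of the 15 bases and Scn8a at 3. The intron after this exon was 14.1 kb long in Scn1a, 8.46 kb in Scn2a1, 10.5 kb in Scn3a and 0.386 kb in Scn8a. The sites of the other alpha subunit genes were chosen by likeness to Scn1a, so their likeness was set by the choice. In the beta subunit genes, the exon end before the longest intron of the coding part is given. As the rules differ, these lines do not compare the subunit types.
Scn2b exon 1: tgtttttctcttTGG
Scn3b exon 2: tgctcatctactGGG
Scn4b exon 1: gcactgggctttTGG

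Across whole transcripts, exon ends with the last bases AG, the favoured exonic match to U1, were less frequent in the alpha subunit genes than among all genes. They made up 10 of 25 exon ends in Scn1a (40%), 10 of 26 in Scn2a1 (38.5%), 8 of 26 in Scn3a (30.8%) and 7 of 26 in Scn8a (26.9%). Over 13825 protein-coding genes, 56.2% of 156114 exon ends had them. Exon ends with CAG or AAG, a subset of these, made up 25.2% of the pooled alpha subunit sites and 43.0% of all sites. Among 2015 genes with at least 20 exon ends, whose median share of AG was 57.1%, only 0.99% had a lower share than Scn8a, and 2.28%, 7.10% and 7.84% had a lower share than Scn3a, Scn2a1 and Scn1a. The share was also low in Scn7a (33.3%) and Scn9a (34.6%), alpha subunit genes outside the set whose scores did not pass the test. Of the genes compared, 2.73% and 3.47% had a lower share than these, so a low share was not particular to the members that rose. Homologous genes share these sites by descent, so the 4 genes are not independent. The beta subunit genes, which did not pass the test, had 3 ends with AG among 13 (23.1%). This is below the pooled 34.0% of the alpha subunit genes, though from few sites. These shares describe the annotation and were not tested against the scores, which give no value for single introns. Sequences were read from the GENCODE M21 transcripts (build GRCm38).

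Scores of all 4 alpha subunit genes rose in N40K neurons, and none of the 3 beta subunit genes passed the test. Among all 15705 genes 21.5% rose and 4.11% fell (limma, Benjamini-Hochberg adjusted p under 0.05 over the whole table). All N40K libraries lay above all control libraries for the 4 alpha subunit genes, against 33.6% of all genes (8.67% lay below). The ratio of N40K to control mean score had a median of 1.52 over the 7 members, 1.92 over the alpha and 1.06 over the beta subunits, and 1.11 over all genes. The median log2 change, computed on log2(score + 0.01), was 0.12 over the members and 0.06 over all genes. This scale understates the change of low scores, so log2 changes without the added 0.01 are given beside it. In that fit, limited to genes whose mean score reached 0.002, the same 4 members rose and 0 fell, against 20.5% and 4.19% of its genes.

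Scn8a, the Nav1.6 gene, had the highest ratio of the 7. Its scores were 0.0026, 0.0023 and 0.0024 in control replicates 1 to 3 and 0.0053, 0.0069 and 0.0074 in N40K replicates 1 to 3. The groups did not overlap, and N40K replicate 1 was the lowest of its group. The mean rose from 0.00243 ± 0.000153 to 0.00653 ± 0.0011 (SD, n = 3), a ratio of 2.69. The log2 change was 0.41 ± 0.05 (SE; limma adjusted p = 0.00508), or 1.41 ± 0.15 without the added 0.01 (limma adjusted p = 0.00318). The ratio was higher than that of 97.3% of all genes.

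Scn1a, the Nav1.1 gene, had scores of 0.0072, 0.0077 and 0.0075 in control libraries and 0.0131, 0.0174 and 0.0191 in N40K libraries. Control libraries lay close together and N40K libraries were spread, with replicate 1 the lowest. The mean rose from 0.00747 ± 0.000252 to 0.0165 ± 0.00309 (SD, n = 3), a ratio of 2.21 that exceeded that of 94.7% of genes. The log2 change was 0.60 ± 0.09 (SE; limma adjusted p = 0.00873), or 1.13 ± 0.15 without the added 0.01. By annotation Scn1a overlaps Gm13630, a transcript on the opposite strand, along 12095 bases. Gm13630 had its own row and did not pass, with mean scores of 1.53 and 1.56 (limma adjusted p = 0.932), and whether strand was used in scoring is not given in the sources used here.

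Scn2a1, the Nav1.2 gene, had scores close to the 4-decimal resolution of the table. They were 0.0017, 0.0015 and 0.0016 in control libraries and 0.0023, 0.0026 and 0.0029 in N40K libraries, with no overlap. The mean rose from 0.0016 ± 0.0001 to 0.0026 ± 0.0003 (SD, n = 3), a ratio of 1.62. The log2 change was 0.12 ± 0.02 (SE; limma adjusted p = 0.0122), or 0.70 ± 0.11 without the added 0.01 (limma adjusted p = 0.0106). The call was narrowly lost without control replicate 2 (limma adjusted p = 0.0502). It was also lost with each library centred on its median, where the change turned to -0.0113 (limma adjusted p = 0.68). With each library centred on the median deviation of its genes the call held, at 0.0536 (limma adjusted p = 0.0304).

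Scn3a, the Nav1.3 gene, had scores of 0.0092, 0.0092 and 0.0088 in control libraries and 0.0127, 0.0124 and 0.0163 in N40K libraries. The groups did not overlap, and N40K replicate 3 stood above the other N40K libraries. The mean rose from 0.00907 ± 0.000231 to 0.0138 ± 0.00217 (SD, n = 3), a ratio of 1.52. The log2 change was 0.32 ± 0.07 (SE; limma adjusted p = 0.027), or 0.60 ± 0.12 without the added 0.01. This was the least stable of the 4 calls: it ended without control replicate 1, 2 or 3 (limma adjusted p = 0.0764, 0.0786 and 0.0891), with library medians aligned (0.0597) and after quantile normalization (0.0653). Scn3a overlaps Gm13595, an antisense transcript with no score here, along 3341 bases.

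The beta subunit genes overlapped between groups. Scn2b, whose product is linked to alpha subunits by a disulfide bond, had scores of 0.0052, 0.0043 and 0.0043 in control and 0.0048, 0.0044 and 0.005 in N40K libraries. Its ratio was 1.03 (limma adjusted p = 0.818). Scn4b, the disulfide-linked subunit tied to resurgent sodium current, had scores of 0.0037, 0.0032 and 0.0033 in control and 0.0039, 0.0036 and 0.0033 in N40K libraries, a ratio of 1.06 (limma adjusted p = 0.592).

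Scn3b encodes a subunit that binds alpha subunits without a disulfide bond. Its scores were 0.0055, 0.0058 and 0.0073 in control and 0.0072, 0.0063 and 0.0082 in N40K libraries, a ratio of 1.17 (limma adjusted p = 0.342). Control replicate 3 lay among the N40K libraries. Without the added 0.01 its log2 change was 0.23 ± 0.15 (SE), and that of Scn2b and Scn4b was 0.05 ± 0.11 and 0.08 ± 0.10. The whole of Scn2b lies within the span of Gm10684, a noncoding gene on the opposite strand, and Scn3b overlaps Gm47266 along 630 bases.

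**Figure D1:**
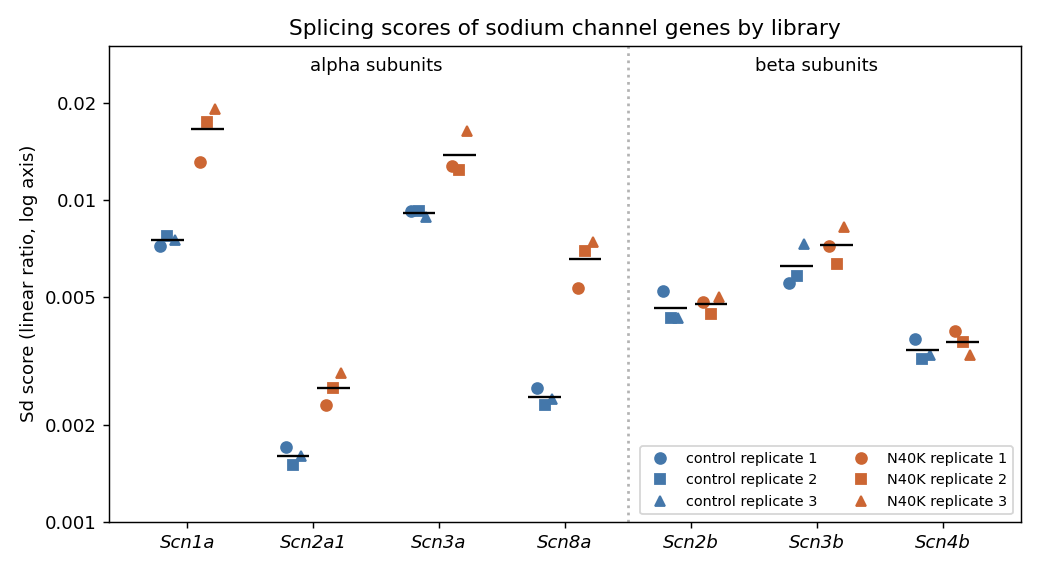
Sd scores (linear ratio, log axis) of the 7 sodium channel genes in each library, with control libraries in blue, N40K libraries in orange, marker shapes for replicate numbers and black bars for group means (n = 3). N40K libraries lie above control libraries in the 4 alpha subunit genes, by a ratio of 1.52 in Scn3a to 2.69 in Scn8a, and the groups overlap in the 3 beta subunit genes.

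The difference between subunit types was examined within libraries, as the log2 ratio of an alpha to a beta subunit score, in a test added after the values were seen. In 12 of 12 pairs this ratio was higher in every N40K library than in every control library. The log2 change of the alpha subunit exceeded that of the beta subunit by 0.37 ± 0.16 (SE, Scn3a against Scn3b) to 1.37 ± 0.16 (Scn8a against Scn2b). The exact permutation p was 0.1 for each pair, 2-sided, the smallest that 3 against 3 libraries can give, and 0.111 after Benjamini-Hochberg adjustment over the 20 pairs compared. The pairs share genes and libraries.

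The size of the rise varied with the library among alpha subunits. N40K replicate 3 had the highest score of the N40K libraries in all 4 genes, and replicate 1 the lowest in Scn1a, Scn2a1 and Scn8a. Library medians over all genes ran the same way, at 0.0146, 0.0153 and 0.0163 in N40K replicates 1, 2 and 3. In control libraries the medians were 0.0136, 0.0127 and 0.0133. The median was 0.0132 ± 0.000458 in control and 0.0154 ± 0.000854 in N40K libraries (SD, n = 3), which gives 1.17 as their ratio (exact permutation p = 0.1, 2-sided). Divided by that ratio, the rise was 2.3-fold for Scn8a, 1.9-fold for Scn1a, 1.39-fold for Scn2a1 and 1.3-fold for Scn3a. The same division gave 0.882 for Scn2b, 0.908 for Scn4b and 1 for Scn3b. With library medians aligned, 2 members (Scn1a and Scn8a) rose and 0 fell, and 3 rose after quantile normalization. With each library centred on the median deviation of its genes, 4 rose, also without the added 0.01.

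Alpha and beta subunit genes differ in length, and rises were more frequent among long genes. Scn8a (chromosome 15) spans 176 kb, and Scn1a, Scn2a1 and Scn3a, all on chromosome 2, span 170, 147 and 111 kb, with 25 or 26 introns each. Scn2b, Scn3b and Scn4b, all on chromosome 9, span 12.3, 22.4 and 15.8 kb with 3 to 6 introns. Scn8a, Scn1a and Scn2a1 fall in the longest length decile of genes, in which 45.4% rose and the median ratio was 1.47. Scn3a falls in the decile before it, in which 40% rose and the median ratio was 1.33. The beta subunit genes fall in deciles 3, 5 and 4 from the shortest, in which 10% to 15.9% rose and median ratios were 1.02 to 1.08. The ratio of each of the 7 members lay above the median of its decile, by most for Scn8a and Scn1a. The part of length in the result was not tested.

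**Figure D2:**
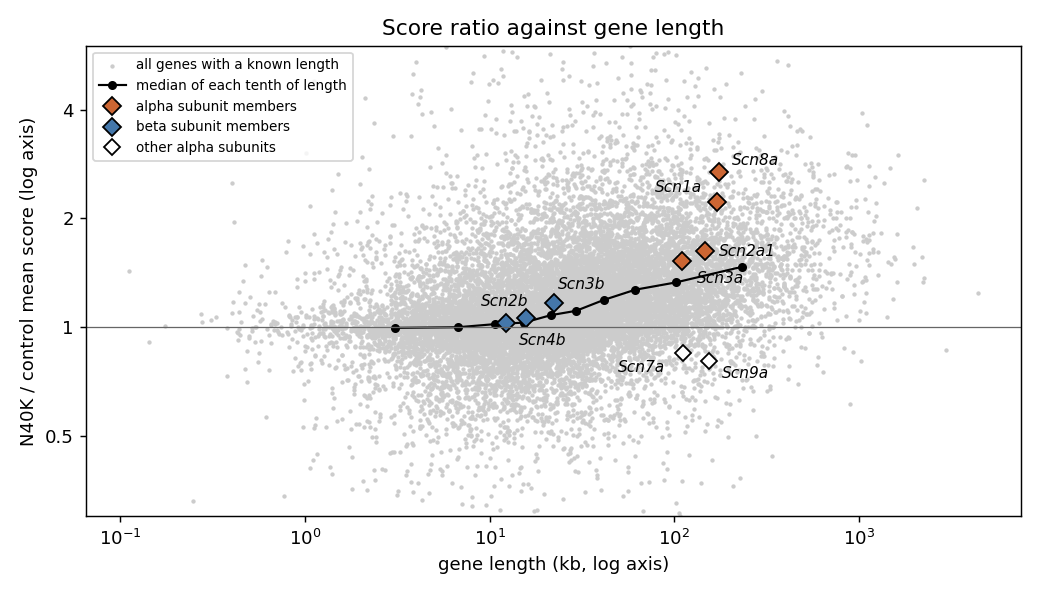
Ratio of N40K to control mean score (log axis) against gene length in kb (log axis) for 15363 genes with a known length, with 83 outside the plotted range of 0.3 to 6; the black line joins the medians of length deciles. Scn8a and Scn1a lie furthest above that line. Scn2a1 (1.62, against a decile median of 1.47) and Scn3a (1.52, against 1.33) lie nearer to it. Scn9a and Scn7a lie below the line, and the beta subunit genes close to it.

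Other alpha subunit genes were compared with the 4 members. Scn9a, the Nav1.7 gene of sensory neurons, is longer than Scn2a1 and shorter than Scn1a, and its scores were 0.0322, 0.0318 and 0.0437 in control and 0.0259, 0.032 and 0.0288 in N40K libraries. Its ratio was 0.805 (limma adjusted p = 0.233). In 4 of 4 pairs with the alpha subunit members, the within-library log2 ratio to Scn9a was higher in every N40K library, by 0.90 to 1.71 (exact permutation p = 0.1 each, 0.111 adjusted over the 20 pairs). Scn7a, of the sodium-sensing channel Nax, had a ratio of 0.846 with N40K scores from 0.0038 to 0.0101 (limma adjusted p = 0.607), and 2 of its 4 pairs did not overlap. For the pairs with Scn9a and Scn7a too, the share among other gene pairs was not computed.

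Partners of sodium channels at the axon initial segment and node showed 5 rises and 0 falls among 16 scored genes (31.2% rose, against 21.5% of all genes), with a median ratio of 1.04 (1.11 over all genes). Kcnq3, Nfasc and Ank2, which rose, are among the longest 10% of genes, of which 45.4% rose. So are Ank3, Nrcam, Cntn1 and Cntnap2, which did not pass. The part of length was not tested. Camsap2, a microtubule minus-end protein, rose 1.67-fold (limma adjusted p = 0.0128). Kcnq3, of the M-type potassium channel, had a ratio of 2.09, from control scores of 0.0007 to 0.0008 to N40K scores of 0.0011, 0.0018 and 0.0017. The adhesion genes Nfasc and Cntn2 rose 1.39-fold and 1.40-fold, and Ank2, which encodes ankyrin-B, 1.27-fold. Ank3, the ankyrin-G gene whose product anchors sodium channels at the initial segment, had a ratio of 0.966 (limma adjusted p = 0.652). Of the others, Nrcam had a ratio of 1, and Trim46, which organises the microtubules of the segment, 0.723 (limma adjusted p = 0.119). The smallest p-values that did not pass included Cntn1 and Cntnap2, with scores of 0.0002 to 0.0005, at the resolution of the table.

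Of 19 modulators of sodium channels, 4 rose and 1 fell (21.1% rose, against 21.5% of all genes), with a median ratio of 1.05. Csnk2a1, the catalytic subunit of casein kinase 2, which strengthens binding of channels to ankyrin-G, rose 1.95-fold from 0.0019, 0.0019 and 0.002 to 0.0033, 0.004 and 0.004 (limma adjusted p = 0.00471). Fgf14, an intracellular growth factor homologue that binds the channel C-terminus, rose 2.11-fold. Nedd4l, a ubiquitin ligase of the channels, rose 1.37-fold, and Prkca, a protein kinase C gene, 1.73-fold from scores of at most 0.0004. Fgf14, Nedd4l and Prkca, but not Csnk2a1, are among the longest 10% of genes, of which 45.4% rose. So are Fgf12, Fgf13 and Fyn, which did not pass. The part of length was not tested. Bace1, whose protease cleaves beta subunits, had a ratio of 1.21 (limma adjusted p = 0.103). Fgf13 and Crmp1 had ratios of 1.67 and 0.839 and did not pass.

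The sodium leak channel showed rises in its pore gene and in both genes of its large cytoplasmic partners. Of 10 scored genes of the leak channel and the sodium pump, 3 rose and 0 fell (30%, against 21.5% of all genes), with a median ratio of 1.1. Unc79 scores were 0.0031, 0.0029 and 0.0031 in control and 0.0047, 0.0072 and 0.0058 in N40K libraries, a ratio of 1.94. Unc80 had a ratio of 1.76 and the pore gene Nalcn 1.36. Unc79, Unc80 and Nalcn are among the longest 10% of genes, of which 45.4% rose. Fam155a, the auxiliary subunit, is also among them, had a ratio of 2.64 and did not pass (limma adjusted p = 0.0546). Atp1b1, a subunit gene of the sodium pump, had a ratio of 1.15 and did not pass (limma adjusted p = 0.125).

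Of 10 genes of RNA-binding proteins and the repressor REST, known to act on sodium channel transcripts, 3 rose and 0 fell (30%, against 21.5% of all genes), with a median ratio of 1.25. Pum2, a pumilio repressor that binds sodium channel mRNAs, rose 1.49-fold. Srrm4, a neuronal splicing activator, rose 1.39-fold. Srrm4 is among the longest 10% of genes, of which 45.4% rose, and Pum2 falls in the length decile before it, of which 40% rose. Rbfox1, Rbfox2 and Rbfox3 are also among the longest 10% and did not pass. The part of length was not tested. Tra2b, a splicing activator, had a ratio of 0.814 with all N40K libraries below all control libraries (limma adjusted p = 0.0738). Nova1 and Nova2, neuronal splicing regulators, had ratios of 1.24 and 1.23 and did not pass.

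None of the 14 rises named from these lists held both in all fits without a library and under all other scalings. Removal of the 25% of genes with the lowest mean scores took out every initial segment partner and modulator that had risen. It left 8 and 7 genes of these lists, of which 0 rose. With the replicate block 0 partners and 1 modulator (Csnk2a1) rose, and with the eBayes trend off 1 partner (Camsap2) and 1 modulator (Csnk2a1). With each library left out in turn, the call of Csnk2a1 held in all 6 fits, and those of Ank2, Cntn2, Fgf14, Kcnq3, Nalcn, Nedd4l, Nfasc and Prkca in 1 of 6. Under 3 other scalings between libraries, the call of Unc80 held in all and that of Csnk2a1 in 2, and 7 held in none (Ank2, Cntn2, Nalcn, Nedd4l, Nfasc, Prkca and Pum2). Of these, Ank2 became a fall with library medians aligned. In that fit 0 initial segment partners rose and 7 fell, and 0 modulators rose and 8 fell, against 1531 rises and 2883 falls over all 15705 genes. The alignment lowered each log2 change by the same 0.13. Its falls included Cntn1, Cntnap2 and Fgf13, with ratios of mean scores of 1.25, 1.33 and 1.67, and also Trim46, at 0.723.

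**Figure D3:**
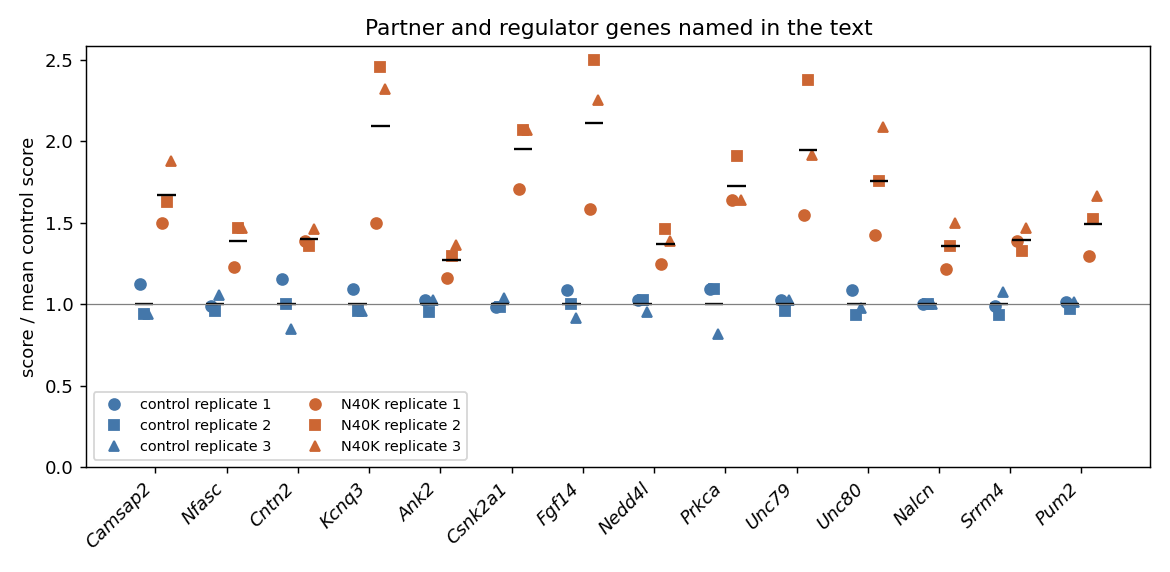
Scores divided by the gene's mean control score for 14 genes of the partner and regulator lists that rose, with control libraries in blue, N40K libraries in orange and black bars for group means (n = 3). In each of the 14 genes the N40K libraries lie above the control libraries, with ratios of 1.27 for Ank2 to 2.11 for Fgf14. The genes were chosen for their rise in these same libraries, so the separation follows largely from that choice. Over all genes, 33.6% lay above control in this way. Of the calls shown, 7 held under none of the 3 other scalings.

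The genes whose scores followed the mean profile of the 7 members most closely over the 6 libraries were Klhl24, Mycbp2, Camk2a, Dstyk and Klhdc10. Their Pearson r was 0.9997, 0.9993, 0.9990, 0.9986 and 0.9985, and their ratios were 1.88, 2.06, 1.51, 1.91 and 2.05. In this mean the alpha subunit genes, with log2 changes of 0.12 to 0.60, weigh more than the beta subunit genes, with 0.01 to 0.09. The profile therefore mainly follows the alpha subunits. The libraries form 2 groups that differ in many genes, and 1952 genes had an r of at least 0.95, so high likeness to this profile was common.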

How the data were processed

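The authors deposited 1 table that gives an Sd score, a ratio made by the authors from RNA reads, for each gene and library. No value is below 0, the minimum is 0.0001, and values carry 4 decimals. Libraries were stranded, from poly(A) RNA, with paired reads of 100 nt, per the labels' protocols. CASAVA, STAR, BWA, bedtools 2.16.1 and the build mm9 appear, without roles, in the submitters' processing notes. How the score was computed, and whether it used strand, is not given in the sources used here. Columns were matched to libraries by name (0 value columns unused, 0 identical pairs).

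Limma 3.58.1 (R 4.3.3; lmFit, eBayes with trend, 2-sided) was run on log2(score + 0.01), with adjustment over 15705 genes. The filter, above 0 in at least 3 libraries, removed none. The fit without an added value used 14306 genes with a mean of at least 0.002. Steps were tested on simulated data, with changes placed only in genes whose control mean was above 0.01 and no shift between libraries. All members lie below that mean, so the test does not cover scores as low as theirs. Length, introns and overlaps came from GENCODE M21 (GRCm38, another build than the authors'), matched for 15363 genes (97.8%), so no coordinates are printed. Transcripts were the best-ranked principal isoform, then the longest coding one.

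Members and lists were chosen with earlier results of these data known. Named genes were all members, each called list gene with up to 3 more by p, overlapping genes and the 5 closest profiles. The markers, Ank3, Nrcam, Fgf12, Fyn and the Rbfox genes were named after their values were seen. Some genes of the lists are not reported here. Alternatives were pseudocounts of 0.001 and 0.1, filters, scalings, the replicate block, eBayes and weight settings and each library left out.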

Additional observations from a re-analysis of the deposited data

How the results depend on the processing

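The rises of Scn1a and Scn8a held under each alternative in which they were tested (18 and 17), with limma adjusted p of 0.00343 to 0.0395 and 0.00233 to 0.033. Of the 7 members 4 passed; 2 of the 3 left passed after removal of the 25% of genes with the lowest mean scores, 2 with each library centred on its median, and 2 with the replicate number as a block, where the calls of Scn2a1 and Scn3a ended (adjusted p = 0.0502 and 0.0727). Leaving out a library gave 2 to 4 called members and 1947 to 4215 called genes, against 4017. After that removal the count was 2451, and with the replicate block 2098. Same-numbered libraries did not deviate together (correlations of -0.07, 0.04 and -0.02), and libraries did not all correlate best with their own number, so the numbers were not taken as pairs. Calls over all genes turned from 3372 rises and 645 falls to 1531 and 2883 with library medians aligned, a shift of 0.13 (log2), to 2022 and 1883 after quantile normalization and to 2235 and 1518 with centring on the median deviation. The ratio of library medians was 1.13 to 1.2 with a library left out.

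Direction changed in members near or below the added 0.01. With library medians aligned the log2 change was -0.0113 for Scn2a1, -0.117 for Scn2b, -0.0409 for Scn3b and -0.109 for Scn4b. Quantile normalization gave -0.0767, -0.0176 and -0.0573 for Scn2b, Scn3b and Scn4b. Centring on the median deviation gave -0.052 for Scn2b and -0.0441 for Scn4b, and, added after seeing the data, the same without a pseudocount gave -0.124 and -0.0872. For Scn2b array weights gave -0.0041, and leaving out control replicate 2 or 3 gave -0.00117 each, within a range up to 0.0429 over the libraries left out. None of these passed the test. Aligning medians lowered each log2 change by the same 0.13, on a scale that understates the change of low scores. For Scn2a1, centring on the median deviation gave 0.0536 (limma adjusted p = 0.0304). Without a pseudocount it gave 0.527 (limma adjusted p = 0.00986). The cause of the changes in direction was not tested. Depth is unknown, and the last decimal limits scores such as those of Scn2a1.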
